A study of Homo sapiens with 10 samples.

Results

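Long intergenic noncoding RNAs (lincRNAs) are spliced or unspliced transcripts that lie between protein-coding genes and carry no long reading frame. Some act as RNA themselves: NEAT1 is the scaffold of nuclear paraspeckles, MALAT1 gathers in nuclear speckles, and NORAD holds Pumilio proteins in the cytoplasm. Others are the precursors of small RNAs, since microRNAs are cut from their exons or introns and small nucleolar RNAs (snoRNAs) from their introns. For many no function is known, and they are named by a number or by a sequencing clone.

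The lincRNAs described here are the rows with the deposited biotype lincRNA whose mean over all 10 libraries was at least 1 CPM (the count divided by the library total, scaled to a common total). This rule left 285 of 7629 lincRNA rows and of 58735 rows in all. Of the 7629 rows, 5162 had 0 counts in every library. The rule used the mean over both groups and not the difference between them, so levels are given as a description and the comparison of the groups was tested. Just inside the threshold stood AC093627.5 (1.03 CPM), LINC02084 (1.02 CPM) and AC005332.4 (1.01 CPM), and just outside it LINC01117 (0.992 CPM), HRAT17 (0.987 CPM) and LINC01270 (0.987 CPM). All 285 passed the filter on low counts, and the lowest count of any of them in any library was 9.

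All 10 libraries came from the established human cell line CH157-MN, labelled as meningioma. In the PBS group (5 libraries) the cells received phosphate-buffered saline. In the ADC group (5 libraries) they received 100 nM hSSTR2-MMAF ADC, an antibody-drug conjugate that brings the tubulin inhibitor monomethyl auristatin F to cells bearing the somatostatin receptor SSTR2, and were harvested on day 3, per the labels. The labels state neither a harvest day for the PBS cells nor that the replicates were separate cultures, so the p-values reflect the spread among these libraries, which may be technical only.

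Library totals ranged from 28262162 to 36463724 counts, and 3 counts, the limit that an observed 0 allows, correspond to 0.0823 to 0.106 CPM, for counting error only. SSTR2 itself stood at 0.297 ± 0.263 CPM with PBS and 0.430 ± 0.103 CPM with ADC (SD, n = 5 each). Of 12 meningioma and arachnoid markers, 7 were under 1 CPM, among them PGR and S100B with 0 counts. Of the other 5, VIM, CLDN1, NF2 and KLF4 were not called, and JUP (plakoglobin) was higher in ADC, from 7.06 ± 0.824 to 21.2 ± 4.52 CPM (log2 fold change 1.58, SE 0.12, adjusted p = 9.7e-12). Leukocyte markers (6 of 6) and neural markers (4 of 4) were under 1 CPM in both group means, the measure used for all these counts. Of 4 epithelial markers 0 were called and 1, EPCAM, was under 1 CPM, while KRT19 was so with PBS only (0.560 against 1.05 CPM). The summed level of the 4 was 209.8 to 240.3 CPM under PBS and 216 to 228 CPM under ADC. Of 4 fibroblast and pericyte markers 3 were called higher in ADC and 1 was under 1 CPM, with a summed level of 151 to 174 CPM under PBS and 177 to 223 CPM under ADC. Of 4 endothelial markers 1 was called higher and 2 were under 1 CPM, with a sum of 1.42 to 2.998 CPM against 3.19 to 4.84 CPM, and the part of these shifts in the lincRNA results was not tested.

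The 285 lincRNAs took up a small and even part of each library, between 0.202% and 0.219% of counts, and 89.1% of all counts on lincRNA rows. Their median mean level was 3.22 CPM, against 35.1 CPM for protein-coding genes that passed the same threshold. A few dominated, as the 10 most abundant held 33.2% of the counts and NORAD alone 13.4%. By annotation 68 were single-exon genes, 86 carried a LINC number, 120 a clone name, 20 an antisense name (-AS) and 11 a divergent-transcript name (-DT). Exonic length ranged from 342 to 28487 bases with a median of 2296. Rankings and ranges by plain CPM, here and below, therefore mix level with length, and values per kilobase of exon are given for a few genes.

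Between ADC and PBS, 32 of the 285 lincRNAs were called (11.2%), 21 higher (7.37%) and 11 lower (3.86%), by edgeR's quasi-likelihood test with Benjamini-Hochberg adjustment over all 14504 genes tested and a threshold of 0.05. The background was 20.8% of all genes tested, 10.8% higher and 10% lower. Protein-coding genes of at least 1 CPM were called in 25.5% of 11134 cases, antisense genes in 4.14% of 266 and genes of the biotype processed transcript in 19.2% of 78. The share of lincRNAs called was therefore below that of all genes, in both directions. Of the 285, 5 had a PBS mean and 9 an ADC mean under 1 CPM, so that they met the rule through 1 group only. Of these 14, AC079949.2 and AC008014.1 were called, both higher, and without the 14 the calls were 19 higher and 11 lower of 271 (11.1%). The groups did not overlap for 18 lincRNAs, 11 higher and 7 lower (6.32%, against 14.2% of all genes tested, 7.29% higher and 6.95% lower), and 15 of these 18 were among the called. Without PBS replicate 1, 7 lincRNAs were called lower, while all genes called numbered 2636 in place of 3018. With libraries scaled to their totals alone 63.3% of all calls were higher in place of 51.8%, and 21 lincRNAs were called higher and 10 lower.

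Changes were small. The median fold among the 32 called was 1.42, 10 changed at least 1.5-fold (8 higher and 2 lower, 3.51% of the lincRNAs against 2.61% of all genes tested), and 1, AC079949.2, which met the rule through the ADC group only, changed at least 2-fold (0.351% against 1.17%). The median log2 fold change over the 285, ADC minus PBS, was 0.01, against -0.00 over all genes tested, and the median size of the change was 0.19 against 0.12. Of the 253 that were not called, 128 had a higher and 125 a lower mean in ADC. For 234 of the 253 the interval of 1.96 SE around the log2 fold change lay within 1 unit of 0. For 141 it lay within a 1.5-fold change. In the others of the 253 a change of 1.5-fold or more is not excluded, and in the 141 smaller changes are not excluded.

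**Figure D1:**
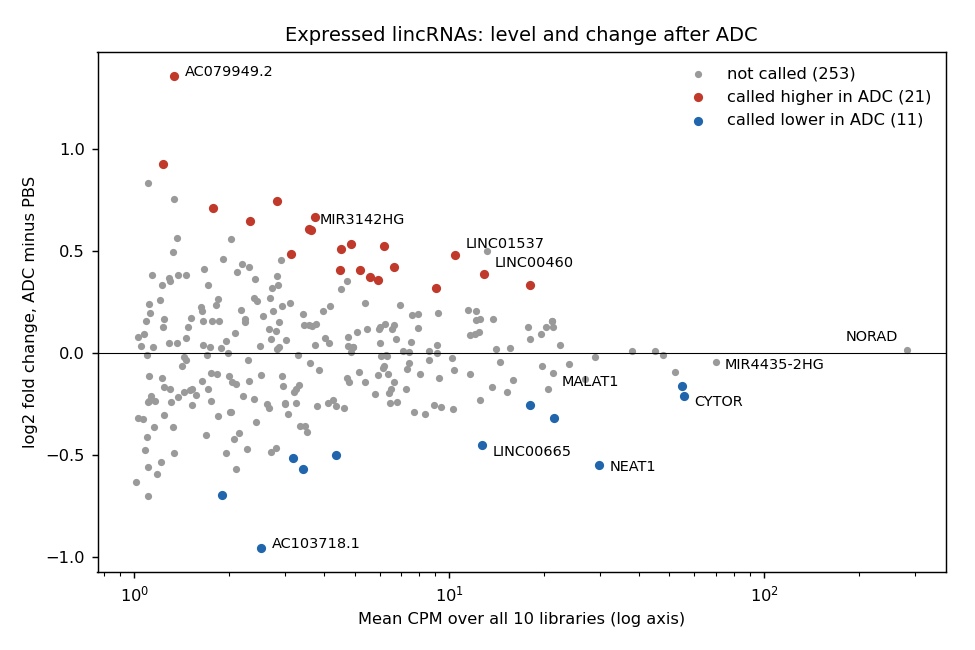
Log2 fold change of the 285 lincRNAs (vertical axis, ADC minus PBS) against their mean CPM over all 10 libraries (horizontal axis, log scale), 1 point per gene. The 21 genes called higher (red) all lie below 20 CPM, whereas the 11 called lower (blue) include NEAT1 and CYTOR among the abundant ones, and NORAD sits at 0.02.

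Precision depended on the level. Between 1 and 2 CPM the median SE of the log2 fold change was 0.28 and 4 of 85 lincRNAs were called (4.71%), and from 2 to 5 CPM the SE was 0.18 and 13 of 99 were called (13.1%). From 5 to 20 CPM it was 0.11 with 11 of 81 called (13.6%), and at 20 CPM or more 0.07 with 4 of 20 called (20%), all of them lower. Protein-coding genes of the same levels were called in 9.79%, 15.9%, 19.1% and 30.1% of cases, with median SEs of 0.29, 0.18, 0.10 and 0.05. At each level fewer lincRNAs than protein-coding genes were called, and the difference was not tested. Over all levels edgeR's coefficient of variation within a group had a median of 17.1% for the lincRNAs and 6.28% for protein-coding genes. The 2 sets were not matched in level (median 3.22 against 35.1 CPM). Counting noise is taken off as if all counts were independent, so counting both mates of a pair would leave part of it in.

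**Figure D2:**
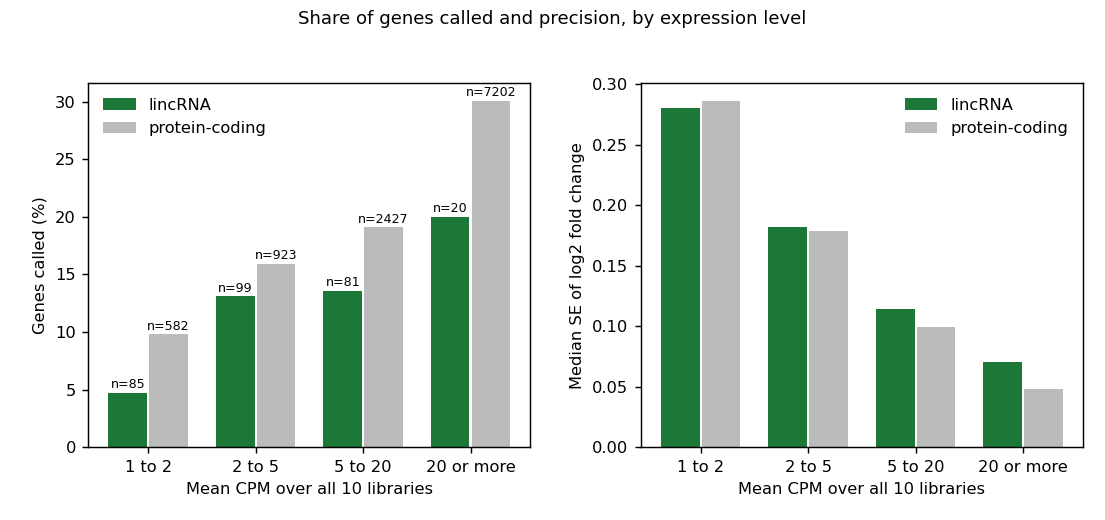
Percent of genes called (left) and median SE of the log2 fold change (right) in 4 ranges of mean CPM, for lincRNAs (green) and protein-coding genes (grey), with the number of genes above each bar on the left. The share of lincRNAs called goes from 4.71% in the lowest range to 20% in the highest, against 9.79% and 30.1% of protein-coding genes.

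The lincRNAs separated the groups as a set of values. On log2(CPM + 0.5) the leading principal component held 24.8% of the variance, with scores of -3.08 to -1.18 in PBS and 1.37 to 2.72 in ADC libraries. The next held 13.5%, with PBS replicate 2 at -3.31, PBS replicate 3 at 2.96 and the others at -1.16 to 1.68. The median deviation of the 285 from their group means, after scaling of the libraries, stayed within 0.03 of 0 in every library. Such medians after scaling do not tell whether single libraries stood apart, and a shift shared by a group could not show here.

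NEAT1 (ENSG00000245532, chromosome 11 from 65422774 to 65445540, plus strand of GRCh38) was the most clearly lower of the abundant lincRNAs. It read 45.0, 28.7, 33.3, 36.7 and 34.0 CPM in PBS replicates 1 to 5 and 26.6, 21.3, 22.5, 27.97 and 23.1 CPM in ADC replicates 1 to 5, here and below after scaling with TMM factors. Every ADC library lay below every PBS library, and PBS replicate 1 was the highest of the 10. NEAT1 fell by 0.55 log2 units (SE 0.09, adjusted p = 2.5e-05), from 35.5 ± 6.01 to 24.3 ± 2.86 CPM (SD, n = 5 per group). The locus makes a short transcript with a poly(A) tail and a long one, the paraspeckle scaffold, whose end is cut from a tRNA-like structure and protected by a triple helix with an A-rich tract.

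The libraries were selected on poly-T, so the ends of these transcripts bear on what was captured. The last 60 bases of a short and a long annotated NEAT1 transcript (2994 and 22743 bases) are given from GENCODE release 29, and the end of NORAD beside them. The capitals mark the polyadenylation signal AATAAA where there is one and otherwise the A-rich tract at the end of the long transcript.
NEAT1-208 end: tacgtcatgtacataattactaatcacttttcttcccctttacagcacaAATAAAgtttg
NEAT1-202 end: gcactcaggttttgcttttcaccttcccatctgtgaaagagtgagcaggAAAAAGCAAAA
NORAD-201 end: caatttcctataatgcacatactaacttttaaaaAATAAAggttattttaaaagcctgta
The signal AATAAA or ATTAAA lies in the last 50 bases of at least 1 transcript of 208 of the 285 lincRNAs (73.0%). The gene count of NEAT1 sums both transcripts, which share the same start, and does not tell them apart.

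MALAT1, the neighbour of NEAT1 on chromosome 11 and likewise nuclear, was not called. It read 27.3, 16.7, 25.5, 27.4 and 25.4 CPM under PBS and 28.1, 22.2, 24.1, 23.5 and 19.7 CPM in ADC replicates 1 to 5. The groups overlapped over most of their range (log2 fold change -0.05, SE 0.10, adjusted p = 0.77, interval -0.25 to 0.14). MALAT1 also ends without a canonical tail, so poly(A) selection may capture it in part.

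Paraspeckle proteins are encoded by protein-coding genes and were counted from a list of 23. Of these 7 were called lower, 1 higher and 15 not called, with a median log2 fold change of -0.08, where 10% of all genes tested were lower. Of the 23, 22 had at least 20 CPM, and of the protein-coding genes at that level 30.1% were called, 17.2% lower and 12.9% higher. The 2 with the smallest adjusted p were the RNA-binding protein genes HNRNPH3 (-0.17, SE 0.03, adjusted p = 0.00034) and SRSF10 (-0.18, SE 0.04, adjusted p = 0.00033). NEAT1 changed by more than any of the 23, whose values ran from -0.19 to 0.11.

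NEAT1 was also counted with other lincRNAs of a list made by name, and where they lie in these cells was not measured. Of 6 on the list of nuclear body and nuclear-retained lincRNAs NEAT1 and CYTOR were lower, 0 were higher, and MALAT1, NORAD, MEG3 and FTX were not called. NORAD was on it although it is mainly cytoplasmic. Of the 285 lincRNAs 11.2% were called, and of all genes tested 20.8%. MEG3, an imprinted RNA made from the maternal copy, read 8.44, 7.14, 8.38, 9.72 and 8.77 CPM under PBS and 8.73, 5.25, 6.40, 8.31 and 6.06 CPM under ADC. It did not pass the test (log2 fold change -0.29, SE 0.13, adjusted p = 0.11), though it did without ADC replicate 1, at adjusted p = 0.038. FTX, from the X-inactivation centre, had 5.93 ± 1.13 CPM with PBS and 6.55 ± 0.485 CPM with ADC (SD, n = 5 each) (log2 fold change 0.14, SE 0.13, adjusted p = 0.47).

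NORAD (ENSG00000260032, chromosome 20 from 36045622 to 36050960, minus strand) was the most abundant lincRNA, also per kilobase of exon (53.3 CPM per kb). It read 279, 262, 291, 299 and 283 CPM under PBS and 299.8, 279, 276, 312 and 263 CPM in ADC replicates 1 to 5. The groups covered the same range (log2 fold change 0.02, SE 0.04, adjusted p = 0.84, interval -0.06 to 0.09). NORAD sequesters the Pumilio proteins, which bind a short element in RNA, and its single exon of 5339 bases holds 15 matches to TGTANATA on the sense strand. The first 3 copies are shown to make the repeat visible, with the match in capitals.
NORAD Pumilio match 1: tggaaggcctgTGTATATAatatgaaaaag
NORAD Pumilio match 2: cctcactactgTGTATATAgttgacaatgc
NORAD Pumilio match 3: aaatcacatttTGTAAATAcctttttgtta
Of the 285 lincRNAs 244 hold 0 such matches in their longest annotated transcript and 5 hold more than 3. HCG11, on chromosome 6, holds 16. Per kilobase both HCG11 and NORAD hold 2.81, the most among the 216 lincRNAs of at least 1000 bases. HCG11 was not called either (log2 fold change 0.13, SE 0.08, adjusted p = 0.29).

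Of 10 tested genes of Pumilio proteins and NORAD partners, ALYREF, an mRNA export adaptor (-0.21, SE 0.05, adjusted p = 0.0035), and CNOT7, a deadenylase subunit (-0.15, SE 0.04, adjusted p = 0.0057), were lower, 0 were higher and 8 were not called. Of the 10, 9 had at least 20 CPM, the level at which 17.2% of protein-coding genes were lower. PICSAR, a lincRNA described in squamous cell carcinoma, followed NORAD closely in level per length (51.8 CPM per kb over 733 bases). It had 37.9 ± 1.87 CPM with PBS and 38.2 ± 2.15 CPM with ADC (SD, n = 5 each) and was not called (log2 fold change 0.01, SE 0.06, adjusted p = 0.92). NEAT1 stood at rank 156 of 285 on this scale, with 1.31 CPM per kb.

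CYTOR and MIR4435-2HG are 2 copies of 1 locus on chromosome 2, far apart and on opposite strands. CYTOR (ENSG00000222041) spans 87454781 to 87636740 and MIR4435-2HG (ENSG00000172965) 111036776 to 111523376. CYTOR read 57.3, 60.8, 63.7, 57.8 and 58.3 CPM under PBS and 47.8, 52.1, 55.1, 53.5 and 49.5 CPM in ADC replicates 1 to 5. Every ADC library was below every PBS library, by a small margin, and CYTOR fell by 0.21 log2 units (SE 0.05, adjusted p = 0.0026). MIR4435-2HG read 72.1, 68.9, 74.4, 72.2 and 68.9 CPM and 64.1, 68.1, 70.1, 72.1 and 72.3 CPM. Its groups overlapped (log2 fold change -0.04, SE 0.04, adjusted p = 0.58, interval -0.13 to 0.05). The difference between the 2 copies' changes was not tested.

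The copies share sequence, which matters for how reads are assigned. Of all stretches of 75 bases in their annotated transcripts, 13.1% of those of CYTOR and 17.7% of those of MIR4435-2HG occur in the other gene too. How the counting treated reads that fit both places is unstated in the labels, so the values of both genes are uncertain. Their promoter windows (300 bases, 250 before to 50 after the start, RefSeq, GRCh38.p14) show the duplication directly, with matches to the AP-1 motif TGANTCA in capitals.
CYTOR promoter: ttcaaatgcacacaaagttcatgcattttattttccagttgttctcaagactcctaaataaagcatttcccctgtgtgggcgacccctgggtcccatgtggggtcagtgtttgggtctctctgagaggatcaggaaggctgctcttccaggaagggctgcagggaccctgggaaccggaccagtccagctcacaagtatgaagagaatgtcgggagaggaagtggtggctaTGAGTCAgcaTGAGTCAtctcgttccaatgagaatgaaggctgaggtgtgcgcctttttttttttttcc
MIR4435-2HG promoter: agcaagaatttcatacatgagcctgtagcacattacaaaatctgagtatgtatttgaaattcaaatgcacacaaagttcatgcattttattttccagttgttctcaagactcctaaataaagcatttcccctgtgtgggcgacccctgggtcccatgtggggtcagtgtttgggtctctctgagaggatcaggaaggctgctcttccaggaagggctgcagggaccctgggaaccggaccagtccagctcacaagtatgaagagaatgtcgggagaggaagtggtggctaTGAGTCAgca
The first lies at chr2:87455177-87455476 on the plus strand and the second at chr2:111495112-111495411 on the minus strand. They share 1 identical run of 241 bases, with the annotated starts offset by 59 bases, so the second window ends before the other AP-1 match. Both genes contain a copy of miR-4435, whose mature sequence is the same from either (seed, bases 2 to 8, in capitals).
hsa-miR-4435: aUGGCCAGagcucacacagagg

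LincRNAs that host microRNAs formed the longest list of members. Of 12 members on the list 1, MIR3142HG, was called higher, 0 were lower and 11 were not called, with a median log2 fold change of -0.05. The shares called were 11.2% of the 285 lincRNAs and 20.8% of all genes tested. CYTOR, which holds a copy of miR-4435 and was lower, is not on this list. The list also leaves out other lincRNAs with a microRNA in their span, such as MEG3, FTX and MUC20-OT1, which were not called. Of 9 further tested host genes, 7 with other biotypes and 2 lincRNAs under 1 CPM, 1 was higher, MIR100HG. Poly(A) libraries measure the host transcript and not the mature microRNA, which was not measured here.

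MIR3142HG (ENSG00000253522, chromosome 5 from 160438594 to 160487426, plus strand) hosts miR-146a, a microRNA that NF-kB induces and that represses its upstream adaptors. It read 3.75, 2.05, 2.59, 2.76 and 3.18 CPM under PBS and 5.12, 3.12, 4.59, 5.22 and 3.82 CPM in ADC replicates 1 to 5. The groups overlapped in PBS replicates 1 and 5 and ADC replicate 2, while the other ADC libraries were above every PBS library. It rose by 0.61 log2 units (SE 0.18, adjusted p = 0.013), from 2.86 ± 0.639 to 4.37 ± 0.896 CPM. Its RefSeq promoter window, at chr5:160468001-160468300 on the plus strand (GRCh38.p14), holds 1 match to the NF-kB consensus, in capitals.
MIR3142HG promoter: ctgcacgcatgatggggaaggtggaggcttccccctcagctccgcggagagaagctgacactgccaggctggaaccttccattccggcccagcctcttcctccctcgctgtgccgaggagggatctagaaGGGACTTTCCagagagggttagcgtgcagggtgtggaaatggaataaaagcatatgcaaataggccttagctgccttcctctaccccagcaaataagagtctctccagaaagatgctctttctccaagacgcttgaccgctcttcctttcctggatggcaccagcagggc
The match is a description of letters and not of binding. The consensus, on either strand, occurs in 5.91% of 35116 RefSeq promoter windows and in 4 of the 107 lincRNAs with a window (3.74%). Of the 4, MIR3142HG and SNHG4 were called, in opposite directions. Of the 107, 13 were called, and of all genes tested 20.8%. A lincRNA counted if any of its windows held a match, so these shares, per window and per gene, are in unlike units.

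The mature microRNAs of the hosts are shown to group them by seed, from RefSeq, with the seed in capitals.
hsa-miR-146a-5p (MIR3142HG): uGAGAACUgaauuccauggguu
hsa-miR-221-3p (MIR222HG): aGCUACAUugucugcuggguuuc
hsa-miR-222-3p (MIR222HG): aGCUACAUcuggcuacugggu
hsa-miR-155-5p (MIR155HG): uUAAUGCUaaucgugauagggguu
hsa-miR-22-3p (MIR22HG): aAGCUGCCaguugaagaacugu
hsa-let-7a-5p (MIRLET7BHG): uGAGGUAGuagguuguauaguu
hsa-let-7b-5p (MIRLET7BHG): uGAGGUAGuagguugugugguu
hsa-miR-4458 (MIR4458HG): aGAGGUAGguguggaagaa
hsa-miR-29b-3p (LINC-PINT): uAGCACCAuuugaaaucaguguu
hsa-miR-29a-3p (AC016831.6): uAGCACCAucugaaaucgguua
The seed GCUACAU is shared by both microRNAs of MIR222HG, GAGGUAG by let-7 and miR-4458 from 2 hosts, and AGCACCA by the miR-29 members from LINC-PINT and AC016831.6, which overlap on chromosome 7, on the same strand, and can share reads.

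None of the hosts named for these 3 seeds was called. MIR222HG, whose microRNAs repress the cell cycle inhibitor CDKN1B, read 3.03, 3.38, 3.07, 3.01 and 3.44 CPM under PBS and 1.85, 2.98, 2.16, 2.10 and 2.28 CPM in ADC replicates 1 to 5. Every ADC library was below every PBS library, but the adjusted p missed the threshold (log2 fold change -0.48, SE 0.18, adjusted p = 0.053). It passed with DESeq2, at adjusted p = 0.032, and without ADC replicate 2, at 0.022. The let-7 host MIRLET7BHG had 2.38 ± 0.372 CPM with PBS and 1.78 ± 0.548 CPM with ADC (SD, n = 5 each) (log2 fold change -0.42, SE 0.23, adjusted p = 0.21), and MIR4458HG had 4.04 ± 0.507 CPM with PBS and 5.02 ± 0.632 CPM with ADC (SD, n = 5 each) (log2 fold change 0.32, SE 0.14, adjusted p = 0.11). Neither was called, and their means went opposite ways.

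The remaining hosts on the list were not called. LINC-PINT, a p53-induced RNA, had a log2 fold change of -0.47 (SE 0.24) in its lincRNA row. Another row of that name, with the biotype processed transcript, had 0.04 (SE 0.30) and was not called either. MIR155HG, the host of the inflammatory miR-155, read 1.28, 1.16, 1.43, 1.91 and 1.12 CPM under PBS and 1.71, 0.656, 1.14, 1.86 and 0.736 CPM under ADC. It spread more within a group than between them (log2 fold change -0.18, SE 0.31, adjusted p = 0.75, interval -0.78 to 0.43). MIR22HG (log2 fold change 0.12, SE 0.10) and MIR503HG (-0.03, SE 0.27) were among them.

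Among 5 lincRNAs listed for NF-kB and inflammation, MIR3142HG was therefore higher, NEAT1 lower, and MIR22HG, MIR155HG and MIR222HG were not called. Of the 285 lincRNAs 11.2% were called, against 20.8% of all genes tested. Of 17 tested microRNA processing genes 2 were called higher, 3 lower and 12 not called, with a median of -0.02. Of the 17, 14 had at least 20 CPM, where 30.1% of protein-coding genes were called. The 2 with the smallest adjusted p were the RNA helicase gene DDX5 (0.20, SE 0.03, adjusted p = 2.7e-05) and XPO5, which exports precursor microRNAs (-0.11, SE 0.03, adjusted p = 0.012).

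**Figure D3:**
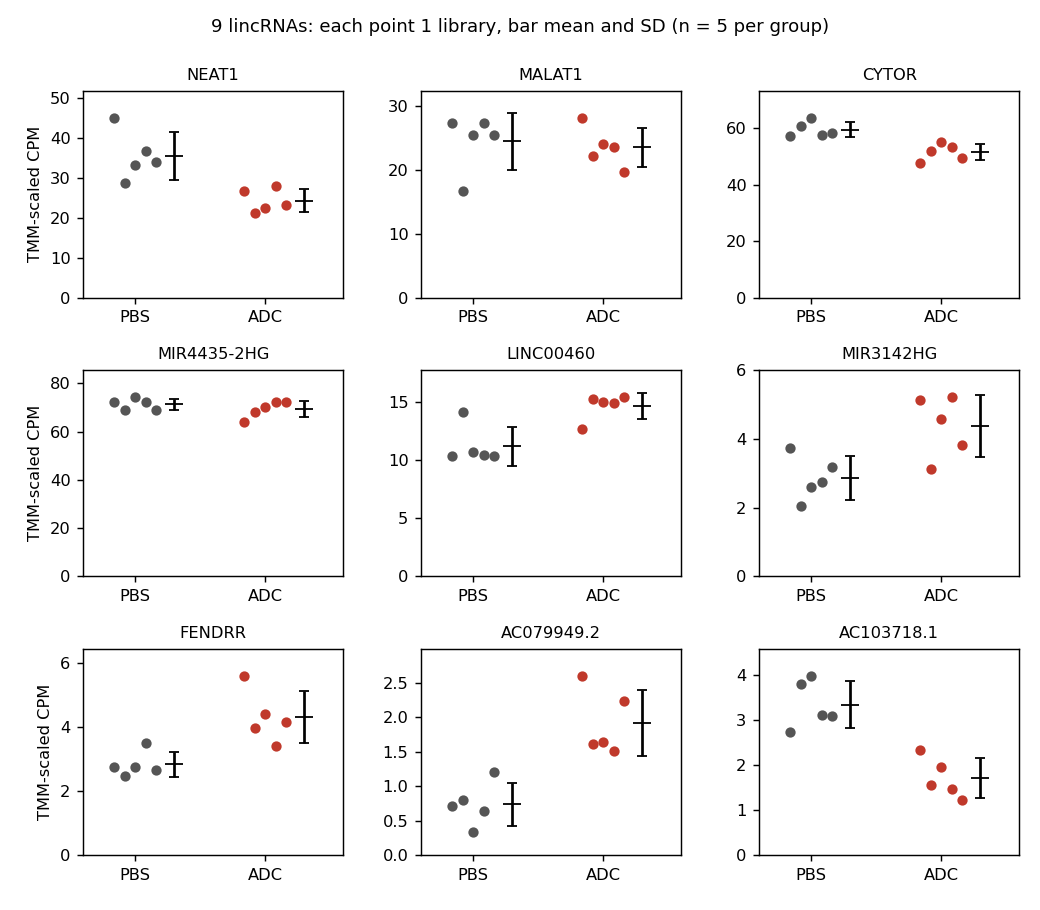
TMM-scaled CPM of 9 lincRNAs in each library (points, in replicate order within a group), with the mean and SD of 5 libraries per group (bars beside the points) on axes that start at 0. PBS and ADC do not overlap for NEAT1, CYTOR, AC079949.2 and AC103718.1, and they overlap for MALAT1, MIR4435-2HG, LINC00460, MIR3142HG and FENDRR.

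SnoRNA hosts release snoRNAs, which guide the modification of ribosomal RNA, from their introns, and the spliced exons of many are removed by nonsense-mediated decay. Of 6 on the list 1 was higher (SNHG18), 1 lower (SNHG4) and 4 not called (SNHG15, SNHG8, SNHG19 and EPB41L4A-AS1). For comparison, 11.2% of the 285 lincRNAs and 20.8% of all genes tested were called. SNHG4 read 28.96, 20.04, 25.04, 24.2 and 20.99 CPM under PBS and 21.2, 19.5, 17.3, 21.4 and 16.3 CPM in ADC replicates 1 to 5. PBS replicate 1 was the highest, and the other libraries of the groups partly overlapped. SNHG4 fell by 0.32 log2 units (SE 0.09, adjusted p = 0.012), and the call was lost without PBS replicate 1 (adjusted p 0.062).

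SNHG18 read 6.24, 9.07, 7.80, 9.72 and 7.45 CPM under PBS and 10.1, 8.85, 11.8, 9.83 and 9.57 CPM in ADC replicates 1 to 5. It rose by 0.32 log2 units (SE 0.11, adjusted p = 0.045), with groups that overlapped, and the call was lost without PBS replicates 1, 3 or 5 or ADC replicates 1, 3 or 4 (adjusted p 0.059 to 0.15). SNHG8 had 20.04 ± 2.50 CPM with PBS and 22.3 ± 0.471 CPM with ADC (SD, n = 5 each) and was not called (log2 fold change 0.16, SE 0.08, adjusted p = 0.15), though it was without PBS replicate 4, at adjusted p = 0.018. SNHG15 did not differ beyond its spread (log2 fold change -0.02, SE 0.07, adjusted p = 0.89, interval -0.15 to 0.12).

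Of 19 further tested snoRNA hosts SNHG7 was higher, SNHG1, DANCR and SNHG26 were lower and 15 were not called. They were 18 genes with other biotypes and SNHG9, a lincRNA under 1 CPM. This is near the 20.8% called among all genes tested. Protein genes of the pathway are read against the 17.2% lower and 12.9% higher among protein-coding genes of at least 20 CPM, a level that every gene of the next 3 lists reached. Among 19 nonsense-mediated decay genes 6 were lower, 0 higher and 13 not called, led by DHX34 (-0.29, SE 0.06, adjusted p = 0.00026) and RBM8A, a part of the exon junction complex (-0.15, SE 0.04, adjusted p = 0.0072). Of 15 genes for snoRNA-protein particles 4 were lower, 0 higher and 11 not called, led by DKC1, a pseudouridine synthase (-0.18, SE 0.03, adjusted p = 0.00024), and NOP56 (-0.16, SE 0.03, adjusted p = 0.00040). The nuclear exosome, which degrades many noncoding RNAs, had 2 of 22 listed genes lower, MTREX (-0.13, SE 0.04, adjusted p = 0.010) and MPP6 (-0.17, SE 0.05, adjusted p = 0.021), 0 higher and 20 not called. MPP6 came onto the list by its symbol, which here is that of a membrane scaffold gene. The exosome cofactor once given that symbol is MPHOSPH6, which was not called (0.07, SE 0.07, adjusted p = 0.50), so MTREX was the 1 exosome gene called.

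Further lists of lincRNAs, drawn from what is reported of them in other systems, gave few calls. Of 5 for p53 and DNA damage NEAT1 was lower and 4 were not called (NORAD, MEG3, LINC-PINT and LINC01089). Of 5 for hypoxia and glycolysis NEAT1 and CYTOR were lower and 3 were not called (NORAD, PVT1 and LINC00941). Of 9 for mesenchymal and tumour-associated lincRNAs 1 was higher, LINC00460, and 8 were not called. The same genes stand on several lists, so these counts are not separate results. Beside them stand the 11.2% of the 285 lincRNAs and the 20.8% of all genes tested that were called.

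LINC00460 (ENSG00000233532, chromosome 13 from 106374477 to 106384315, plus strand) is a lincRNA described in invasive carcinomas. It read 10.4, 14.1, 10.7, 10.4 and 10.3 CPM under PBS and 12.7, 15.2, 14.97, 14.9 and 15.4 CPM in ADC replicates 1 to 5. PBS replicate 2 stood above the other 4 PBS libraries, which lay together, while ADC replicate 1 was the lowest of its group. LINC00460 rose by 0.39 log2 units (SE 0.10, adjusted p = 0.0037), from 11.2 ± 1.65 to 14.6 ± 1.11 CPM. Its RefSeq promoter window, at chr13:106376314-106376613 on the plus strand (GRCh38.p14), holds 2 matches to TGANTCA, in capitals.
LINC00460 promoter: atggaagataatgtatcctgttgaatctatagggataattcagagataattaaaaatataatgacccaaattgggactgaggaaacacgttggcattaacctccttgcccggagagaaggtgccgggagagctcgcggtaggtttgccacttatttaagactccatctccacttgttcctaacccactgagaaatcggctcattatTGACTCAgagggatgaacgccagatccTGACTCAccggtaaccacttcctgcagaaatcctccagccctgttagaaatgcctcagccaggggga
This motif occurs, on either strand, in 7.71% of the 35116 windows and in 16 of 107 lincRNAs (14.95%). These shares, and those of the other motifs below, are likewise per window and per gene and cannot be set against each other. Of the 16 lincRNAs 3 were called: CYTOR lower, LINC00460 and OLMALINC higher. Beside this and the counts below, 13 of the 107 lincRNAs and 20.8% of all genes tested were called. The other motifs searched were GAANNTTC of heat shock elements, in 6.77% of windows and 7 of 107 lincRNAs, and the E-box CACGTG, in 7.26% and 10 of 107. Of the lincRNAs with the heat shock motif FGF14-AS2 and MIR3142HG were called, both higher, and of those with the E-box 0 were called. In the MIR3142HG window printed above, the heat shock match is left in lower case. The motif searches give letters in a window and say nothing of binding.

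The largest change of all was in a single-exon lincRNA of unknown role, AC079949.2 (ENSG00000278266, chromosome 12 from 127147149 to 127150081, plus strand). It read 0.714, 0.800, 0.341, 0.636 and 1.21 CPM under PBS and 2.60, 1.61, 1.64, 1.51 and 2.24 CPM in ADC replicates 1 to 5. Every ADC library was above every PBS library, the closest being PBS replicate 5 and ADC replicate 4. AC079949.2 rose by 1.36 log2 units (SE 0.30, adjusted p = 0.0014), from 0.740 ± 0.313 to 1.92 ± 0.477 CPM. AC008014.1 followed, with 1.04, 1.16, 0.613, 0.672 and 0.736 CPM against 1.47, 1.72, 2.16, 1.37 and 1.33 CPM. It did not overlap between the groups and rose by 0.93 log2 units (SE 0.29, adjusted p = 0.020), and the call was lost without ADC replicate 3 (adjusted p 0.077). Both had PBS means under 1 CPM and met the rule for membership through the ADC group only, so a difference in that direction was built into their choice. Few counts stand behind their values.

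LINC01139 (chromosome 1 from 238476542 to 238486054) read 2.38, 1.36, 2.35, 2.51 and 2.03 CPM under PBS and 3.21, 4.51, 3.39, 3.37 and 3.29 CPM in ADC replicates 1 to 5. The groups did not overlap, and 4 of the ADC libraries were nearly equal. It rose by 0.75 log2 units (SE 0.19, adjusted p = 0.0045). C10orf91, a locus on chromosome 10 once listed as an open reading frame, read 2.32, 3.44, 3.51, 2.12 and 3.06 CPM and 5.21, 4.43, 4.77, 3.57 and 4.98 CPM. It also separated the groups and rose by 0.67 log2 units (SE 0.17, adjusted p = 0.0039). FGF14-AS2, antisense to the fibroblast growth factor gene FGF14, rose by 0.71 log2 units (SE 0.25, adjusted p = 0.037), from 1.34 ± 0.434 to 2.20 ± 0.317 CPM, and that call was lost without PBS replicates 4 or 5 or ADC replicates 1, 2 or 3 (adjusted p 0.053 to 0.10).

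FENDRR (ENSG00000268388, chromosome 16 from 86474529 to 86509099, minus strand) is a developmental RNA that starts head to head with FOXF1, a transcription factor of mesenchyme. It read 2.77, 2.49, 2.76, 3.50 and 2.68 CPM under PBS and 5.61, 3.99, 4.42, 3.40 and 4.17 CPM in ADC replicates 1 to 5. PBS replicate 4 and ADC replicate 4 crossed, and the other libraries did not. FENDRR rose by 0.61 log2 units (SE 0.16, adjusted p = 0.0070). AJ011932.1, a single-exon transcript of 465 bases near the collagen gene COL6A1, read 1.67, 2.40, 1.94, 1.45 and 1.56 CPM and 4.14, 2.73, 2.13, 3.30 and 1.86 CPM. ADC replicate 1 was the highest and ADC replicate 5 lay inside the PBS range. It rose by 0.65 log2 units (SE 0.23, adjusted p = 0.038), and the call was lost without PBS replicates 1, 3, 4 or 5 or ADC replicates 1, 2 or 4 (adjusted p 0.051 to 0.18).

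AC090833.1 rose by 0.54 log2 units (SE 0.15, adjusted p = 0.0086), from 3.98 ± 0.855 to 5.77 ± 0.602 CPM, and FLJ42351 rose by 0.53 log2 units (SE 0.13, adjusted p = 0.0034), from 5.10 ± 0.686 to 7.33 ± 1.04 CPM. In both the highest PBS library lay just above the lowest ADC library. The remaining 9 lincRNAs called higher, named after their values were seen, had log2 fold changes of 0.34 to 0.51. They are AC116345.1, OLMALINC, LINC01537, SCAMP1-AS1, LINC02577, AF117829.1, LINC00944, ITGB1-DT and AC003092.1. LINC01537 was the clearest, with 7.73, 9.40, 8.48, 7.92 and 9.80 CPM under PBS and 12.3, 10.8, 13.0, 13.9 and 10.6 CPM in ADC replicates 1 to 5. Its groups did not overlap (log2 fold change 0.48, SE 0.10, adjusted p = 0.00079).

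Of these 9, the call of OLMALINC, an RNA of oligodendrocyte maturation, was lost without PBS replicates 1, 3, 4 or 5 or ADC replicates 1, 3, 4 or 5 (adjusted p 0.053 to 0.11). LINC02577 lost it without PBS replicates 1, 2 or 5 or ADC replicates 3 or 4 (adjusted p 0.051 to 0.15), and AF117829.1 did so without PBS replicates 1, 3 or 5 or ADC replicates 4 or 5 (adjusted p 0.065 to 0.12). For LINC00944 the call ended without PBS replicates 3, 4 or 5 or ADC replicates 1 or 2 (adjusted p 0.065 to 0.089). ITGB1-DT, divergent from the integrin gene ITGB1, lost its call without PBS replicate 3 or ADC replicates 3 or 5 (adjusted p 0.069 to 0.096). The other 4 were called whichever library was left out.

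Among the lower lincRNAs AC103718.1 changed most. It read 2.74, 3.79, 3.99, 3.11 and 3.09 CPM under PBS and 2.34, 1.56, 1.96, 1.48 and 1.23 CPM in ADC replicates 1 to 5. Every ADC library was below every PBS library, and it fell by 0.96 log2 units (SE 0.20, adjusted p = 0.00083). LINC00665 (chromosome 19 from 36313067 to 36331718) read 14.4, 14.4, 15.7, 12.8 and 16.2 CPM and 8.42, 11.8, 10.6, 10.6 and 12.4 CPM. It did not overlap between the groups either, and fell by 0.45 log2 units (SE 0.10, adjusted p = 0.0011). LINC01446, with 2.47, 2.13, 2.69, 2.12 and 2.36 CPM against 1.94, 1.56, 1.49, 1.37 and 0.876 CPM, likewise did not overlap. It fell by 0.69 log2 units (SE 0.23, adjusted p = 0.029), and the call was lost without PBS replicates 1, 3 or 5 or ADC replicates 4 or 5 (adjusted p 0.052 to 0.081).

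LINC00886 fell by 0.50 log2 units (SE 0.15, adjusted p = 0.013), from 5.11 ± 0.703 to 3.62 ± 0.524 CPM, with groups that overlapped in PBS replicate 2 and ADC replicate 4. FOXD2-AS1, beside the forkhead gene FOXD2, fell by 0.52 log2 units (SE 0.17, adjusted p = 0.025), and the call was lost without PBS replicates 3 or 5 or ADC replicates 3 or 5 (adjusted p 0.054 to 0.068). AC083843.2 fell by 0.57 log2 units (SE 0.18, adjusted p = 0.024), from 4.10 ± 1.17 to 2.76 ± 0.279 CPM, and the call was lost without PBS replicates 1, 3 or 4 or ADC replicates 2 or 3 (adjusted p 0.051 to 0.10). PBS replicates 2 and 5 lay within the ADC range of AC083843.2.

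The smallest called decreases were in abundant lincRNAs. LINC00467 fell by 0.25 log2 units (SE 0.08, adjusted p = 0.018), from 19.7 ± 1.39 to 16.5 ± 1.21 CPM, and lost the call without PBS replicates 1 or 3 or ADC replicate 5 (adjusted p 0.052 to 0.053). AL161431.1 read 59.9, 57.9, 56.5, 53.6 and 60.6 CPM under PBS and 48.1, 55.3, 53.02, 46.3 and 56.1 CPM in ADC replicates 1 to 5. The ranges overlapped and it fell by 0.16 log2 units (SE 0.05, adjusted p = 0.036), a call that was lost without PBS replicates 1, 3 or 5 or ADC replicates 1, 3 or 4 (adjusted p 0.050 to 0.14).

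**Figure D4:**
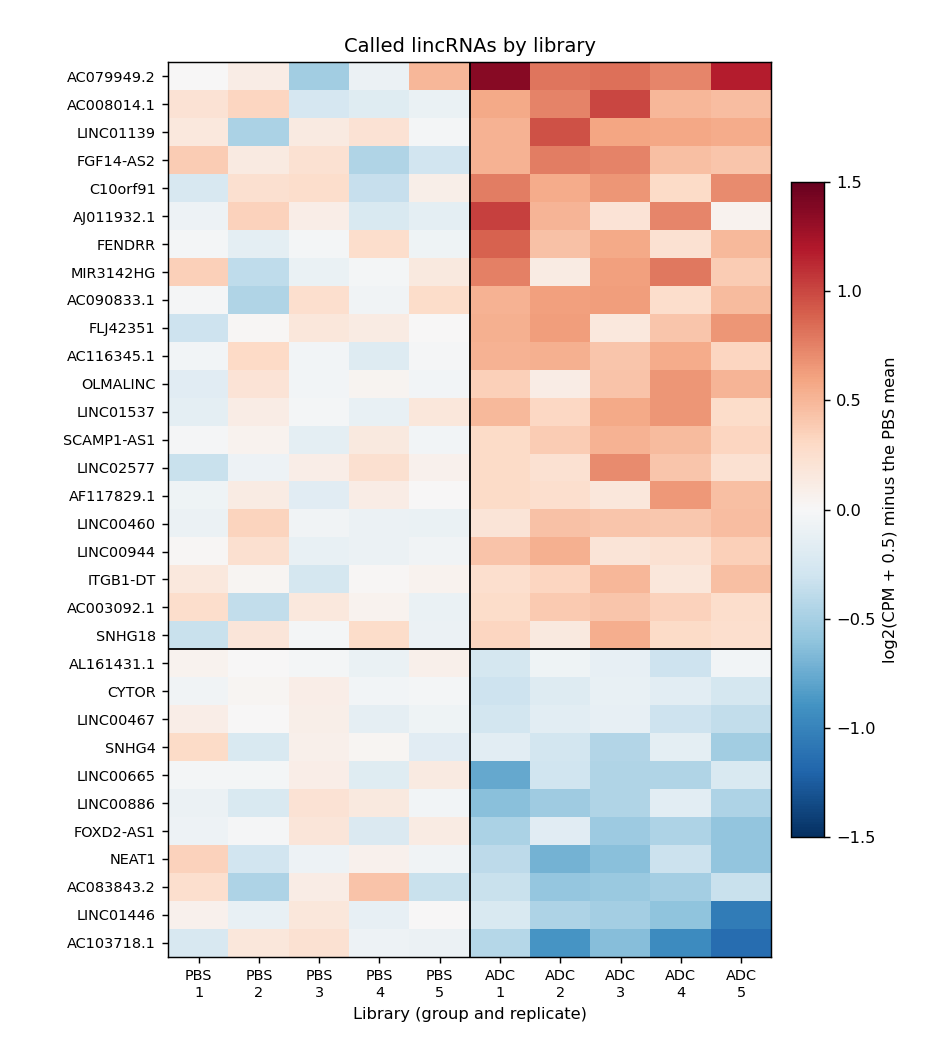
The 32 called lincRNAs (rows, ordered by log2 fold change) in the 10 libraries (columns), coloured by log2(CPM + 0.5) minus the mean of the 5 PBS libraries. The 21 higher genes are above the horizontal line and the 11 lower genes below it, and AC079949.2 shows the strongest colour in ADC replicates 1 and 5.

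Of the 32 calls 17 held under all 18 alternatives, 12 higher and 5 lower. The 5 were NEAT1, CYTOR, LINC00665, LINC00886 and AC103718.1. Among the 12 higher were LINC00460, LINC01537, MIR3142HG, FENDRR, LINC01139 and AC079949.2, the last of which met the rule through the ADC group only. None of the 32 changed sign under any of the 18. Besides the losses on leaving out a library, 4 calls were lost with limma-voom (OLMALINC, AF117829.1, AC083843.2 and AJ011932.1, adjusted p 0.062 to 0.065). With no low-count filter 8 were lost (OLMALINC, AF117829.1, ITGB1-DT, LINC00944, LINC02577, FOXD2-AS1, LINC01446 and FGF14-AS2, adjusted p 0.050 to 0.089). AL161431.1 was lost with library size alone (adjusted p = 0.069) and OLMALINC with the replicate block (adjusted p = 0.052).

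The other most abundant lincRNAs were not called. AC125807.2 had 53.9 ± 3.66 CPM with PBS and 50.6 ± 1.46 CPM with ADC (SD, n = 5 each) (log2 fold change -0.09, SE 0.05, adjusted p = 0.22). EBLN3P, a locus derived from an ancient insertion, had a log2 fold change of -0.01 with an interval of -0.12 to 0.10, and LINC00839 one of 0.01 with -0.11 to 0.13. A change of the median size among the 32 called lincRNAs lies outside both intervals.

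Position beside protein-coding genes was compared as a description. Of the 285 lincRNAs 222 had a tested nearest protein-coding gene, and the log2 fold changes of the pairs correlated weakly (Pearson r 0.11, Spearman rho 0.11 across pairs, which share the same 10 libraries). Of 23 called lincRNAs with a tested partner 6 had a called partner, and of 199 uncalled ones 58 did. In 4 of the 6 pairs both genes were higher. FENDRR and FOXF1 start 1428 bases apart on opposite strands, and FOXF1 rose with it (log2 fold change 0.21, SE 0.06, adjusted p = 0.018). COL6A1, a chain of type VI collagen 6784 bases from AJ011932.1, rose too (log2 fold change 0.42, SE 0.04, adjusted p = 4.7e-10). PDE2A, a cyclic nucleotide phosphodiesterase gene, lies 2912 bases from LINC01537 (log2 fold change 0.56, SE 0.20, adjusted p = 0.043), and EFNB2, an ephrin gene, 105416 bases from LINC00460 (log2 fold change 0.19, SE 0.06, adjusted p = 0.014).

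In the other 2 pairs the genes moved in opposite directions. FLJ42351 was higher while SLC20A1, a phosphate transporter gene that starts 167 bases away on the other strand, was lower (log2 fold change -0.24, SE 0.03, adjusted p = 3.3e-07). AC083843.2 was lower while ZFAT, at 78971 bases, was higher (log2 fold change 0.28, SE 0.10, adjusted p = 0.035). A protein-coding gene started on the other strand within 2000 bases of 64 lincRNAs, and over these pairs r was -0.01 and rho 0.07.

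**Figure D5:**
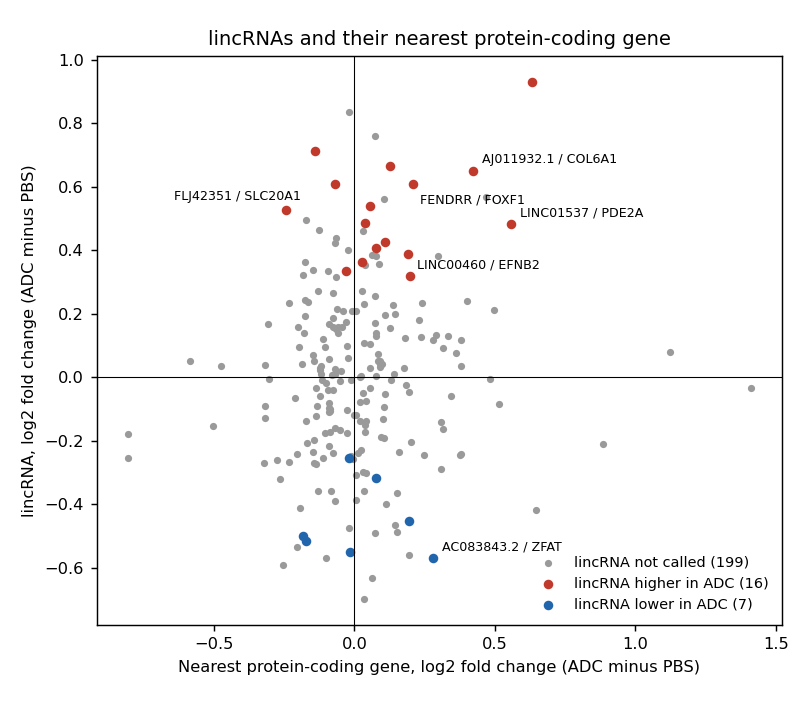
Log2 fold change (ADC minus PBS) of 222 lincRNAs (vertical axis) against that of the nearest protein-coding gene (horizontal axis), 1 point per pair, with the 6 pairs in which both genes were called named as lincRNA / neighbour. The points form no clear slope (r 0.11), and called pairs lie in the upper right, the upper left and the lower right.

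Overlap with other genes could blur these counts, because neither the strand of the libraries nor that of the counting was stated in the labels. The span of 158 lincRNAs overlaps another gene and that of 48 a protein-coding gene. More than 20% of the exonic bases are shared with exons on the same strand in 5 lincRNAs and with exons on the other strand in 17. None of these was among the 32 called. Among the 127 lincRNAs whose span overlaps no other gene 11 were called higher and 5 lower. Beside them stand 21 higher and 11 lower of all 285 lincRNAs (11.2% called), and the 20.8% called of all genes tested.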

How the data were processed

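Per the labels' protocols, RNA was selected on poly-T beads and sequenced on an Illumina instrument. The table the authors deposited holds raw counts per gene, with no normalization, for 58735 genes with biotypes. HISAT2, HISAT, TopHat2 and the build hg38 are named in the submitters' processing notes. Counting tool, strand setting and annotation were not given in the sources used here. Each of the 58735 identifiers and spans matched GENCODE release 29, from which exons and transcripts were taken. Counts of 2 to 21 were even in 65.4% to 67.3% of cases, against 49.0% to 50.6% of counts of at least 1000, so both mates of a pair may have been counted.

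Members were set by deposited biotype and a mean of at least 1 CPM. Counts of all 10 libraries were fitted with edgeR 4.0.16 in R 4.3.3: TMM factors, filterByExpr (minimum count 10, minimum total 15), glmQLFit and glmQLFTest, two-sided, Benjamini-Hochberg adjusted over 14504 genes, threshold 0.05. SE is the absolute log2 fold change over the square root of F. The script was tested on simulated data. No 2 libraries of a group agreed within sampling noise (chi-square over its degrees of freedom 5.18 to 16.5). Named members are the 10 most abundant, the 10 with the largest called change in each direction and the called members of role lists. In protein lists the 2 called genes with the smallest adjusted p are named. The members, lists and rules were chosen with earlier results of these data known. Alternatives were DESeq2 1.42.0, limma-voom (limma 3.58.1), other scaling, filters, a replicate block, halved counts, other thresholds for membership and leaving out each library.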

Additional observations from a re-analysis of the deposited data

Results flagged for a closer look

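Among 60 groups of 5 libraries examined for a single value far from the rest, 6 had one, where chance gives about 1 in 20. LINC00460 had 2 of them. PBS replicate 2 read 14.1 CPM, where the other PBS libraries ran from 10.3 to 10.7, and ADC replicate 1 read 12.7 CPM, where the others ran from 14.9 to 15.4. Each of the 2 lay toward the other group, and the call of LINC00460 held without either. FENDRR read 3.50 CPM in PBS replicate 4, above 2.49 to 2.77 in the other 4. LINC01139 read 4.51 CPM in ADC replicate 2, above 3.21 to 3.39. FOXD2-AS1 read 3.25 CPM in ADC replicate 2, above 2.31 to 2.58. PICSAR, which was not called, read 41.1 CPM in PBS replicate 2, above 36.5 to 37.4. Leaving out these libraries ended none of the calls of LINC00460, FENDRR, LINC01139 and FOXD2-AS1.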

How the results depend on the processing

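The numbers of lincRNAs called higher and lower stayed within 1.5 times 21 and 11 under DESeq2 (23 and 13), limma-voom (19 and 10), no low-count filter (16 and 9), halved counts (23 and 11), the other scalings and filters, and membership at 0.5 or 2 CPM. Leaving out 1 library gave 14 to 22 higher and 7 to 13 lower, the 7 without PBS replicate 1. Among the 127 lincRNAs that overlap no other gene 11 were higher and 5 lower, from fewer genes. Called were 11.2% of the 285 lincRNAs and 20.8% of all genes tested. In the 127 the median log2 fold change was -0.00607 in place of 0.0113. With library size alone it was 0.0338.

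Values near 0 changed sign in small steps, all uncalled. With library size alone EBLN3P stood at 0.0124 and SNHG15 at 0.00346. Leaving out 1 library gave ranges of -0.0121 to 0.0458 for NORAD, -0.0507 to 0.0246 for EBLN3P, -0.0265 to 0.0570 for LINC00839, -0.00598 to 0.0440 for PICSAR, -0.0519 to 0.0397 for SNHG15, -0.163 to 0.00473 for MALAT1, -0.0321 to 0.0846 for LINC00941, -0.00639 to 0.0472 for LINC01116, -0.0917 to 0.139 for SNHG19 and -0.143 to 0.128 for MIR503HG. The cause was not tested.

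With the replicate number as a block 21 lincRNAs were higher and 11 lower, and 31 of the 32 calls were kept, without OLMALINC (adjusted p = 0.052). Same-numbered libraries of the groups did not deviate together (correlations of -0.01 to 0.04), so the numbers were not taken as a pairing. Depth limits the lincRNAs of 1 to 2 CPM most, where the smallest called change was 0.69.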

Other observations

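FP236383.3, chosen after its values were seen, was the lincRNA above 10 CPM with the widest spread within groups (edgeR's coefficient of variation 28.4%). It read 4.79, 8.33, 17.1, 16.1 and 8.33 CPM under PBS and 11.6, 20.6, 25.5, 5.81 and 13.0 CPM in ADC replicates 1 to 5. It was not called (log2 fold change 0.50, SE 0.26, adjusted p = 0.18), and its per-library values crossed between the groups over nearly their whole range. Below the threshold for membership 281 further lincRNAs were tested, of which 2 were called higher and 6 lower. The split between directions there was opposite to that above it. Above it 11.2% of the 285 lincRNAs were called, and of all genes tested 20.8%. The differences between these sets were not tested.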
